A study of Homo sapiens with 12 samples.

Results

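The loci described here are the genes whose whole symbol is LINC followed by digits, the name given to long intergenic noncoding RNA loci, and they were found by that symbol alone. They made up 1769 of the 48114 rows of the gene tables, and no expression value entered the choice. All 1769 carried the full name long intergenic non-protein coding RNA. Of these rows, 8 shared a symbol with another row (4 symbols on 2 rows each), and they were kept as separate rows. Transcript abundance was measured by RNA sequencing of poly(A)-selected RNA from cell lines of pancreatic ductal adenocarcinoma (PDAC). PANC-1, a human pancreatic epithelioid carcinoma line used as a model of basal-like PDAC, was transfected for 48 h with a control siRNA (siCtrl), or at 40 nM with an siRNA against QKI (siQKI) or against RBFOX2 (siRBFOX2), with 3 libraries in each group. HPAF-II, a pancreatic adenocarcinoma line used as a model of classical PDAC, was transfected with siCtrl alone for 48 h, again with 3 libraries. The labels number the libraries from 1 to 3 without saying that they came from separate cultures, so the p-values measure the spread between these libraries, which may be technical.

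Long intergenic noncoding RNAs are transcribed by RNA polymerase II from their own promoters between protein-coding genes. They are usually capped and spliced, are weakly expressed, and differ more between cell types than messenger RNAs do. Some act at their own locus and others elsewhere in the nucleus or in the cytoplasm, but for most no function is known. QKI and RBFOX2 are RNA-binding proteins that regulate alternative splicing. QKI binds ACUAAC-like elements and RBFOX2 binds UGCAUG. Noncoding transcripts are cleared in the nucleus by the RNA exosome and its adaptors. A gene symbol says nothing about how a transcript is made, so the place of each locus in the genome was also examined.

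The targeted transcripts followed the labels. QKI measured 25533 ± 869 normalized counts in siCtrl and 5034 ± 412 in siQKI (mean ± SD, n = 3), and RBFOX2 measured 15429 ± 76.8 in siCtrl and 2095 ± 352 in siRBFOX2. The transcript not targeted remained abundant, with QKI at 28016 ± 1149 in siRBFOX2 and RBFOX2 at 12642 ± 129 in siQKI. The normalized count is the authors' gene count divided by a size factor for each library. The keratin genes KRT8, KRT18 and KRT19 were abundant in every group, whereas the epithelial marker EPCAM was at 4749 ± 52.2 in PANC-1 siCtrl and at 120072 ± 24258 in HPAF-II. Among markers of other cells, the leukocyte gene PTPRC and the fibroblast gene DCN were listed at 0 in every siCtrl and siQKI library of PANC-1, while COL1A1, a collagen gene, measured 4093 ± 208 in siCtrl and 8122 ± 741 in siQKI. In HPAF-II the libraries were uneven, with DCN from 18.3 to 279 and COL1A2, another collagen gene, from 0 to 970. The summed level of the 4 epithelial markers ran from 2543 to 2636 per 1000000 in siCtrl, 2548 to 2702 in siQKI and 2124 to 2280.3 in siRBFOX2, the last below every siCtrl library, and from 10079 to 10535 in HPAF-II. The sum of 6 markers of leukocytes, endothelium and fibroblasts (PTPRC, PECAM1, VWF, COL1A1, COL1A2 and DCN) ran from 11.3 to 12.7 in siCtrl, 23.2 to 26.9 in siQKI, 13.6 to 20.8 in siRBFOX2 and 18.0 to 22.2 in HPAF-II, and the part of either sum in the LINC values was not tested. Summed counts before the size factors lay between 226697015 and 376192091 per library, but 82.1% to 84.8% of the low values were multiples of 3, so the number of reads behind a count is unknown. Over the LINC loci, libraries of one group correlated at r = 0.871 to 0.932 on the log2 scale across 408 loci, and no PANC-1 library stood apart. In bulk RNA, a lower level in every cell and fewer cells with the transcript cannot be told apart.

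The promoters of 10 LINC loci are shown because these loci changed most, 5 of them on knockdown and 5 between the cell lines, among those with a matching RefSeq promoter near the locus (1213 of the 1769 had one). Each is the RefSeq sequence of assembly GRCh38.p14, 5′ to 3′, from 250 bases before the transcript start to 50 bases after it. Capitals mark the letters of the TATA box (TATAAA), the CCAAT box (CCAAT) and the GC box (GGGCGG) on either strand, before or after the start. The letters of these motifs do not overlap one another in the windows shown. The first 5 belong to loci that rose on knockdown.
LINC02593 promoter (chr1:919643-919942, minus strand): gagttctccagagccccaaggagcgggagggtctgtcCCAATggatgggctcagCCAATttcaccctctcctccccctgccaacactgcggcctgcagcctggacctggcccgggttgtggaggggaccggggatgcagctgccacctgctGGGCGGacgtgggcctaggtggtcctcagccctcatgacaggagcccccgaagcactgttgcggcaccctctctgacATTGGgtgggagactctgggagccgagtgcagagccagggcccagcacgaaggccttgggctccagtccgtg
LINC02280 promoter (chr14:104665509-104665808, minus strand): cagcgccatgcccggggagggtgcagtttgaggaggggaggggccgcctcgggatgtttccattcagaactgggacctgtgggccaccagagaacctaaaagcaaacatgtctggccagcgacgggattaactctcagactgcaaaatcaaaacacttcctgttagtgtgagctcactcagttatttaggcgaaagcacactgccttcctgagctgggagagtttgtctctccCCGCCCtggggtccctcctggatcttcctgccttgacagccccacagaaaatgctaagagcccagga
LINC02361 promoter (chr12:132189646-132189945, minus strand): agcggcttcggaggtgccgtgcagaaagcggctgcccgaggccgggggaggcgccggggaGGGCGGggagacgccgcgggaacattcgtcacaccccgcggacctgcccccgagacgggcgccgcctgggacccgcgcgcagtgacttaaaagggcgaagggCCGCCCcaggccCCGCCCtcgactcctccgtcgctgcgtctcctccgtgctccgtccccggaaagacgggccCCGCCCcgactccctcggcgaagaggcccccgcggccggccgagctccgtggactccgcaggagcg
LINC02762 promoter (chr11:112270499-112270798, plus strand): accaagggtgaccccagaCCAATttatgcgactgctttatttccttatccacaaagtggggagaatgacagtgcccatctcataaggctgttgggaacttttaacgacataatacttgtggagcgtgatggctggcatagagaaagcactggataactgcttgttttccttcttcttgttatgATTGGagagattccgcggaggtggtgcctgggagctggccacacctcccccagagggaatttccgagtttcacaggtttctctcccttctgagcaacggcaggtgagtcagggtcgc
LINC01770 promoter (chr1:1434524-1434823, minus strand): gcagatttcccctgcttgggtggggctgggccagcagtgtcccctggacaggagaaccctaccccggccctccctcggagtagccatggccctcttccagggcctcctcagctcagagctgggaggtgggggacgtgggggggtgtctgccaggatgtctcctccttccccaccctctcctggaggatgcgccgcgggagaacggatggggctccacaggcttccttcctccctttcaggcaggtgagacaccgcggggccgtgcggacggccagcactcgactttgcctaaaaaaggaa

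The next 5 promoters belong to loci that were high in PANC-1 and at or near 0 in HPAF-II.
LINC02987 promoter (chr19:27793181-27793480, plus strand): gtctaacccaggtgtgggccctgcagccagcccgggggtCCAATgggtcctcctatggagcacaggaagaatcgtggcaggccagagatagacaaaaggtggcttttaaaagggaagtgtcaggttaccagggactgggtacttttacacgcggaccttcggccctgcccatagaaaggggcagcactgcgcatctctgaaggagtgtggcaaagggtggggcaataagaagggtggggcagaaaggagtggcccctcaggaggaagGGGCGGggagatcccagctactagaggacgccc
LINC00839 promoter (chr10:42475241-42475540, plus strand): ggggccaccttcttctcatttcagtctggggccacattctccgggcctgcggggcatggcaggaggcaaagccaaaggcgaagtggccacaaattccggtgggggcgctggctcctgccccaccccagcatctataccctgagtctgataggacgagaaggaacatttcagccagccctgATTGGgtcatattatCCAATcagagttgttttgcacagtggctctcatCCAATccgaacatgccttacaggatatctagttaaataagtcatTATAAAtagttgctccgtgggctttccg
LINC00665 promoter (chr19:36331669-36331968, minus strand): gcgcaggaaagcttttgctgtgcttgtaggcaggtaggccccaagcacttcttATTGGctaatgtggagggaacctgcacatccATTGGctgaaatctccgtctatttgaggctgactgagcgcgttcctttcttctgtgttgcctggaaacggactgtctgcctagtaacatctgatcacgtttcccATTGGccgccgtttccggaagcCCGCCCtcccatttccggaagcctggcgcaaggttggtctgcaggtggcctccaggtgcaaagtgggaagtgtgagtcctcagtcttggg
LINC00662 promoter (chr19:27793891-27794190, minus strand): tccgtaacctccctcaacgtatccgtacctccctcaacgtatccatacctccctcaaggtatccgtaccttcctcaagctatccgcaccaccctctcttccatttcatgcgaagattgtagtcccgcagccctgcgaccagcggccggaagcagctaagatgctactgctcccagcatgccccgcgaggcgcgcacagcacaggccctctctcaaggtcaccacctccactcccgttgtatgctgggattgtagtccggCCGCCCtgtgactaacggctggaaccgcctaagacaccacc
LINC02610 promoter (chr2:238231628-238231927, minus strand): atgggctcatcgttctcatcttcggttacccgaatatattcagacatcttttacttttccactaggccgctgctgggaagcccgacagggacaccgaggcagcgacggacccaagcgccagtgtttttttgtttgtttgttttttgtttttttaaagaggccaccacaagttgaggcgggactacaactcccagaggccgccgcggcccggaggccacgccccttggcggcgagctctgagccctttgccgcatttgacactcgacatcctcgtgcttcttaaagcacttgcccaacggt

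The LINC02593 window follows the RefSeq start, which is also the end of the row in the deposited table (base 919692), whereas the GENCODE 29 transcript of that locus starts upstream at base 921016, so that the window lies within it. The LINC00662 window lies around a start within the row of that locus in the deposited table, which ends at base 27794254. The LINC02361 window was 76.3% G and C with 4 GC boxes, and the LINC02762 window was 50.3% G and C with none. LINC00839 was the only one of these 10 windows with the letters TATAAA, but they lie after the transcript start, so they were not taken for a TATA box. Its 3 CCAAT matches lie before the start. The single GGGCGG matches of LINC02987 and LINC00662 also lie after the start. Over the 1739 RefSeq promoters with a LINC symbol, the median G and C content was 47.7%, against 58.7% over all 35116 promoters of the table. GGGCGG was in 18.9% of LINC promoters and in 45.0% of all promoters. The shares for CCAAT were 36.0% and 34.6%, and for TATAAA 16.3% and 11.5%. LINC promoters as a class were thus poorer in G and C and in GC boxes than the promoters of the table as a whole.

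Stretches of 3 LINC transcripts are shown because they hold the letters of the element that QKI or RBFOX2 binds and the loci moved on a knockdown (LINC02593 rose on both, LINC00852 and LINC02535 fell on siQKI). They come from the longest GENCODE 29 transcript of each locus, as DNA letters on the GRCh38 assembly, with the motif in capitals and 20 bases on each side. LINC02593 and LINC00852 hold only the RBFOX2 element. LINC00852 fell on siQKI, and measured 432 ± 40.9 normalized counts in siCtrl and 400 ± 38.9 in siRBFOX2, so motif and knockdown do not match there.
LINC02593 transcript, TGCATG starting at base 1778 of 4152 (chr1:919214-919259, minus strand, exon 1 of 1): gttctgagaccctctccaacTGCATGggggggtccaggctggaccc
LINC02593 transcript, TGCATG starting at base 2327 of 4152 (chr1:918665-918710, minus strand, exon 1 of 1): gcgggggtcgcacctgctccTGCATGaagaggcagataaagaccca
LINC00852 transcript, TGCATG starting at base 254 of 1328 (chr3:10284652-10284697, plus strand, exon 1 of 1): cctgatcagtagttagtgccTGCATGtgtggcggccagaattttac
LINC00852 transcript, TGCATG starting at base 369 of 1328 (chr3:10284767-10284812, plus strand, exon 1 of 1): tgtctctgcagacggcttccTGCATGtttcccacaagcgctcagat
LINC00852 transcript, TGCATG starting at base 1125 of 1328 (chr3:10285523-10285568, plus strand, exon 1 of 1): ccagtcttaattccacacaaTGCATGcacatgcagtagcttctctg
LINC02535 transcript, ACTAAC starting at base 733 of 2513 (chr6:85388974-85389019, minus strand, exon 2 of 2): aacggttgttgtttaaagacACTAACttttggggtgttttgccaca
LINC02535 transcript, ACTAAC starting at base 1186 of 2513 (chr6:85388521-85388566, minus strand, exon 2 of 2): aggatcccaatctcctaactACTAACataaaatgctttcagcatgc

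TGCATG was searched on the transcript strand and found in 628 of the 1712 LINC loci with a GENCODE transcript (36.7%), and ACTAAC in 286 (16.7%). In the longest transcripts of all GENCODE lincRNA genes, the shares were 27.9% and 12.9%. The longest transcripts of the LINC loci were longer (median 1202 bases against 704), and per kilobase the values were close, at 0.339 against 0.330 for TGCATG and 0.120 against 0.130 for ACTAAC. A match is a run of letters and does not show binding.

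To learn how many LINC loci were active in these cells, loci whose mean normalized count was 10 or more were counted in each group. Of the 1769, 329 (18.6%) reached this mean in siCtrl, 335 (18.9%) in siQKI, 343 (19.4%) in siRBFOX2 and 370 (20.9%) in HPAF-II. The same was true of 44.5% to 47.2% of all rows. The 3 PANC-1 groups thus had close numbers of active loci, and their order was not tested. With a minimum of 50 the numbers were 197, 207, 207 and 219 in the same order, and at least 10 in every library of the group was met by 262, 262, 259 and 264. In contrast, 884 LINC loci (50.0%) were listed at 0 in all 12 libraries. Loci that reached 10 in at least 1 group numbered 513, and 212 reached it in all 4.

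Active LINC loci were weakly expressed. The median over those at or above 10 was 90.8 normalized counts in siCtrl and 77.3 in HPAF-II, against 935 and 998 over all rows at or above 10. Together the 1769 loci took 0.0405% ± 0.00118 of the normalized counts in siCtrl (mean ± SD, n = 3), 0.0459% ± 0.000334 in siQKI, 0.0471% ± 0.00215 in siRBFOX2 and 0.0602% ± 0.00292 in HPAF-II. Both knockdowns had a larger share than siCtrl, with no overlap between libraries, and each reached the smallest p that 3 against 3 libraries allow (two-sided exact permutation test, p = 0.1). The 10 most abundant loci took 32.3% of the LINC counts in siCtrl and 41.7% in HPAF-II.

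By total normalized count, which also depends on transcript length, LINC00674 led in both lines, with 8639, 8216 and 7838 normalized counts in the siCtrl libraries of PANC-1 and 16987, 16893 and 13533 in those of HPAF-II. It was followed in PANC-1 siCtrl by LINC01000 (6010.4 ± 178, mean ± SD, n = 3), LINC00673 (5734 ± 137), LINC01128 (5437 ± 235), LINC01963 (3903 ± 478), LINC00997 (3504 ± 365), LINC00261 (3315 ± 178) and LINC00667 (3046 ± 255). In HPAF-II, LINC00467 (13374 ± 3145), LINC00342 (7360.4 ± 1653), LINC01002 (6542 ± 1177), LINC00941 (5937 ± 458), LINC00623 (5832 ± 522), LINC01000 (4429 ± 607) and LINC00963 (4102 ± 595) came after LINC00674. Per kilobase of GENCODE exon sequence, which allows for length, LINC00674 stood at 11214 normalized counts in PANC-1 siCtrl, LINC00941 at 1737, LINC00997 at 1324, LINC00623 at 1313 and LINC01963 at 1239.9. LINC00261 (597), LINC01128 (574) and LINC00667 (458) were lower. The order covers named loci only, without LINC01000 and LINC00673, which had no GENCODE exon length. Counts were made on FAST DB genes, whose extents differ from GENCODE for some loci, LINC00941 among them, so these values are approximate. The value of LINC00674 rests on 734 bases of exon in a locus that overlaps 5 other genes. Some of these levels could be shared with copies elsewhere: of the overlapping words of 31 bases in the longest transcript, 95.8% for LINC01002, 81.2% for LINC00623 and 45.8% for LINC00342 also occurred in transcripts of other GENCODE genes.

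The label intergenic held for most but not all loci. GENCODE 29 had 1712 of the 1769 under the same symbol at an overlapping place, and classed 1552 as lincRNA, 67 as antisense and 8 as protein-coding. A protein-coding gene overlapped 97 loci (5.48%), and another gene of any kind overlapped 737 (41.7%). Active loci lay closer to protein-coding genes, which is given as a description. Among the 334 loci with a mean of at least 10 over the 9 PANC-1 libraries, the median distance to the nearest protein-coding gene was 16.8 kb, and 37 (11.1%) overlapped one. Among the 884 loci listed at 0 throughout, the median distance was 110.2 kb and 27 (3.05%) overlapped one. Divergent starts within 1 kb of a protein-coding start were found for 16 of the first set and 5 of the second. The active loci also had longer exon sequence (median 2250 against 1028 bases). Whether strand was used in counting is not given in the sources used here, so reads of overlapping genes cannot be told apart.

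QKI silencing changed 63 of the 334 tested LINC loci, and more of them rose than fell. limma's moderated test on log2(normalized count + 1), fitted on all 22544 genes with a mean of at least 10 over the 9 PANC-1 libraries, called 45 loci higher (13.5%) and 18 lower (5.39%) at an adjusted p under 0.05 (Benjamini-Hochberg over all genes tested). Of all genes tested, 14.9% were called higher and 18.1% lower. The share of LINC loci that rose was thus near that of all genes, and the share that fell was below it. The median log2 fold change was 0.18 over the LINC loci and 0.03 over all genes, and the median SE was 0.43 and 0.14. This contrast is not at equal level: in classes of mean below 1000, all genes had medians of 0.18 to 0.24. Of the called loci, 31 rose and 9 fell by at least 1.5-fold. This cut was not counted over all genes, and calls with a wider SE need larger folds, so the split is a description. The added 1 shrinks the fold of loci with few counts. 1435 LINC loci were below the filter; the members just inside it were LINC01783, LINC01814 and LINC02643 (means of 10.3, 10.3 and 10.4) and those just outside were LINC02028, LINC01605 and LINC01337 (9.87, 9.77 and 9.69).

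The largest rise among loci with a mean of at least 50 was that of LINC02593 (chr1:916818-919692 of hg38, the build of all locus positions given), an unspliced transcript in GENCODE that overlaps no other gene. It measured 264, 254 and 309 normalized counts in the siCtrl libraries and 1440.2, 1236 and 1291 in the siQKI libraries, a log2 fold change of 2.26 (SE 0.16, adjusted p = 6.1e-08). Every siQKI library was more than 3 times as high as every siCtrl library. LINC02870 (chr10:132445189-132448306) rose from 220.2, 248 and 197 to 486, 516 and 500.1 (log2 fold change 1.18, SE 0.21, adjusted p = 0.00038), with very like values among the siQKI libraries. LINC01770 (chr1:1430157-1434573), whose start lies 288 bases from that of VWA1 on the other strand, rose from 153, 157 and 184 to 419.6, 336 and 439 (log2 fold change 1.26, SE 0.23, adjusted p = 0.00046). LINC02298 (chr14:105094147-105099496) rose from 213, 174 and 127 to 366, 392 and 409 (log2 fold change 1.21, SE 0.27, adjusted p = 0.00227).

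The other leading rises were of low loci with a wider spread. LINC02280 went from 25.8, 18.0 and 51.3 to 116, 157 and 78.6 (log2 fold change 1.93, SE 0.50, adjusted p = 0.00764), LINC00858 from 126, 60.0 and 92.6 to 169.9, 263 and 358 (log2 fold change 1.49, SE 0.35, adjusted p = 0.00395) and LINC01311 from 73.7, 139.9 and 99.6 to 317, 250.3 and 258 (log2 fold change 1.43, SE 0.33, adjusted p = 0.00326). The siCtrl and siQKI libraries did not overlap for any of these 3 loci. LINC02280 averaged 31.7 in siCtrl and 61.5 in siRBFOX2, so it met the mean of at least 50 only through its siQKI libraries. LINC02361 rose from 89.0, 108 and 75.5 to 277, 181 and 157 (log2 fold change 1.14, SE 0.35, adjusted p = 0.0196), but was not past the threshold in a fit without the mean-variance trend (adjusted p = 0.0547), without siCtrl replicate 3 (0.0668) and without siQKI replicate 1 (0.0982). Among the most abundant loci the changes were small. LINC00997 had a log2 fold change of 0.31 (adjusted p = 0.00729) and LINC01000 of 0.21 (adjusted p = 0.0284), while LINC01128 fell from 5437 ± 235 to 4352 ± 176 (log2 fold change -0.32, SE 0.06, adjusted p = 0.00059) and LINC01963 from 3903 ± 478 to 2912 ± 157 (log2 fold change -0.42, SE 0.10, adjusted p = 0.00373). LINC01000 was not past the threshold in a fit without the mean-variance trend (adjusted p = 0.101), without siCtrl replicate 2 (0.0967), without siCtrl replicate 3 (0.0519), without siQKI replicate 2 (0.0754) and without siQKI replicate 3 (0.0962).

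Among the loci that fell on siQKI, LINC00941 was the most abundant of the leading ones. LINC00941 (chr12:30795043-30802711) is a spliced RNA described as raised in several carcinomas, pancreatic ones included. It dropped from 2301, 2329 and 2429.7 normalized counts in siCtrl to 939.6, 1097 and 988 in siQKI (log2 fold change -1.22, SE 0.09, adjusted p = 1.5e-07), and no siQKI library came near a siCtrl library. LINC00888 (chr3:183447608-183456010), which GENCODE lists as a transcribed pseudogene, fell from 1312, 1233 and 1371 to 799, 712 and 756 (log2 fold change -0.79, SE 0.10, adjusted p = 3.2e-05). LINC01588 (chr14:49981669-50007520) fell from 1131, 835 and 873 to 468, 442 and 347 (log2 fold change -1.17, SE 0.19, adjusted p = 0.00020). All 3 were separated from siCtrl in every library.

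LINC02085 (chr3:101940859-101999210) had the largest fall of this set, from 251, 189 and 173 to 50.2, 60.2 and 68.2 (log2 fold change -1.75, SE 0.35, adjusted p = 0.00114), although 91.8% of its 31-base words also occur in AC106712.1, one of 31 other GENCODE genes that share words with it, so its reads could have been split. LINC00852 (chr3:10284419-10285746) overlaps the protein-coding gene AC022384.1 and the ghrelin gene GHRL, which lie on different strands. LINC00852 fell from 389, 438 and 469.8 to 187, 314 and 197 (log2 fold change -0.93, SE 0.22, adjusted p = 0.00399). These overlaps mean that reads of the partner genes may count here. LINC03009, which overlaps POMZP3, fell from 1590.1, 1459 and 1752 to 943, 1159 and 1177 (log2 fold change -0.55, SE 0.11, adjusted p = 0.00131).

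The calls of LINC02535 and LINC00511 were less firm. LINC02535 fell from 208, 199.9 and 247 to 144, 109.9 and 111 (log2 fold change -0.84, SE 0.26, adjusted p = 0.0221) and was not past the threshold without siCtrl replicate 3 (adjusted p = 0.0861), without siQKI replicate 2 (0.0682) and without siQKI replicate 3 (0.0663). LINC00511, described as raised in several carcinomas, fell from 411, 333 and 465 to 168, 243 and 311 (log2 fold change -0.77, SE 0.27, adjusted p = 0.0395) and was not past the threshold with no filter on low values (adjusted p = 0.0587), in a fit without the mean-variance trend (0.0971), after rescaling by the upper quartile (0.0597), without siCtrl replicate 1 (0.0918), without siCtrl replicate 3 (0.138), without siQKI replicate 1 (0.17) and without siQKI replicate 2 (0.0738).

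**Figure D1:**
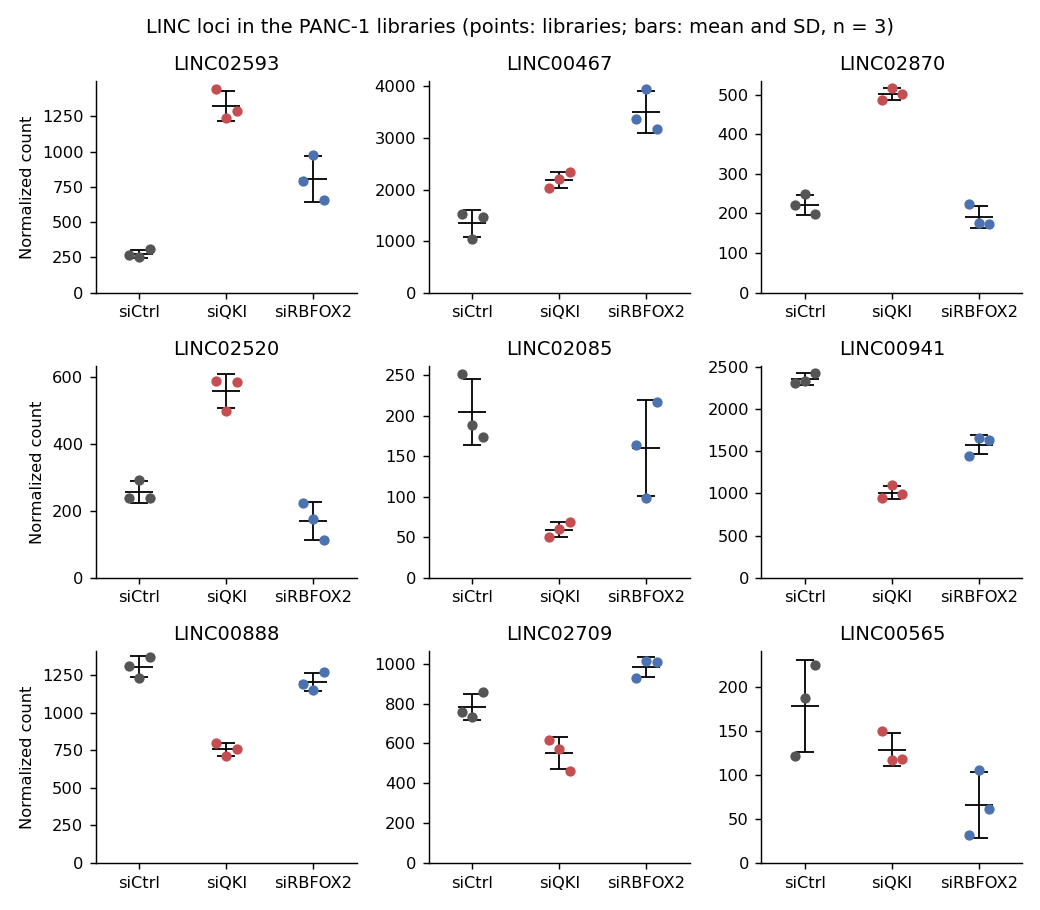
Normalized counts (y axis, from 0) of 9 LINC loci in the 3 libraries of each PANC-1 group (x axis); each point is a library and the bars are the mean and SD. LINC02593 is raised in both knockdowns, LINC02870 and LINC02520 are high in siQKI, and LINC00941 lies lower in both.

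RBFOX2 silencing changed 42 LINC loci, and most of them rose. The same fit called 35 loci higher (10.5%) and 7 lower (2.10%) against siCtrl, beside 12% higher and 14.5% lower among all genes tested. As on siQKI, the share of risers was near the background and the share of fallers below it. The median log2 fold change was 0.14 over the LINC loci and 0.01 over all genes, and 25 risers and 2 fallers moved by at least 1.5-fold. That cut was again not counted over all genes. The medians are again not at equal level: in classes of mean below 1000, all genes had 0.11 to 0.17. The siCtrl libraries served both knockdown comparisons, so values of the knockdowns are given side by side and no overlap between them is read as a result.

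LINC02593 again had the largest rise, to 789, 977 and 655 normalized counts (log2 fold change 1.53, SE 0.16, adjusted p = 5.5e-06), beside 2.26 on siQKI. LINC00467 (chr1:211378711-211432536), whose transcript is known to code for a small mitochondrial protein that associates with ATP synthase, came next. It rose from 1529.8, 1044 and 1458 in siCtrl to 3363, 3958 and 3179 in siRBFOX2 (log2 fold change 1.39, SE 0.13, adjusted p = 1.8e-06), while siQKI had 2029, 2208 and 2338 (log2 fold change 0.72, SE 0.13, adjusted p = 0.00044). The 3 groups did not overlap for LINC00467. LINC00482 rose to 396, 403 and 394 from 189.5, 172 and 182 (log2 fold change 1.13, SE 0.21, adjusted p = 0.00099), with siQKI at 373, 284 and 243 in between. LINC02361 rose to 319, 285 and 142 (log2 fold change 1.37, SE 0.35, adjusted p = 0.00821).

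The remaining leading rises on siRBFOX2 each rested on particular libraries. LINC01311 reached 193, 191 and 396 (log2 fold change 1.27, SE 0.33, adjusted p = 0.00944) and was not past the threshold without siRBFOX2 replicate 3 (adjusted p = 0.0555). LINC01842 reached 322, 215 and 264 from 149, 114 and 142 (log2 fold change 0.97, SE 0.25, adjusted p = 0.00905) and was not past the threshold without siRBFOX2 replicate 1 (adjusted p = 0.0505). LINC01260 reached 168, 167 and 198 from 116, 68.0 and 62.4 (log2 fold change 1.16, SE 0.35, adjusted p = 0.0226) and was not past the threshold without siCtrl replicate 2 (adjusted p = 0.0698), without siCtrl replicate 3 (0.0814), without siRBFOX2 replicate 1 (0.0512) and without siRBFOX2 replicate 3 (0.0733). 97.0% of the 31-base words of LINC01260 also occur in AL139352.1, so that its reads could be shared. LINC02762 reached 114, 95.9 and 153 from 54.6, 39.0 and 44.3 (log2 fold change 1.36, SE 0.42, adjusted p = 0.0263) and was not past the threshold with no filter on low values (adjusted p = 0.0633), without siCtrl replicate 2 (0.0739), without siCtrl replicate 3 (0.0611), without siRBFOX2 replicate 1 (0.0617) and without siRBFOX2 replicate 3 (0.103).

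Of the loci that fell on siRBFOX2, LINC00941 was the firmest. It measured 1447, 1653 and 1630.2 normalized counts (log2 fold change -0.58, SE 0.09, adjusted p = 0.00033), between siCtrl and siQKI and without overlap with either. LINC00565 (chr13:113926516-113928991) had the largest fall of those with a mean of at least 50, from 122, 188 and 225 to 31.5, 106 and 61.1 (log2 fold change -1.53, SE 0.43, adjusted p = 0.0143), and was not past the threshold in a fit without the mean-variance trend (adjusted p = 0.0516), without siCtrl replicate 3 (0.0683) and without siRBFOX2 replicate 1 (0.0618). LINC03009 measured 1218, 1155 and 1261 (log2 fold change -0.40, SE 0.11, adjusted p = 0.0159) and was not past the threshold without siCtrl replicate 3 (adjusted p = 0.0779) and without siRBFOX2 replicate 2 (0.053).

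The other fallers moved little. LINC02246 went from 769.7, 917 and 721 to 606, 601 and 611 (log2 fold change -0.40, SE 0.13, adjusted p = 0.0395) and was not past the threshold in a fit of these groups alone (adjusted p = 0.0601), after rescaling by the upper quartile (0.0581), without siCtrl replicate 1 (0.0643), without siCtrl replicate 2 (0.175), without siQKI replicate 2 (0.051), without siRBFOX2 replicate 1 (0.0842), without siRBFOX2 replicate 2 (0.0809) and without siRBFOX2 replicate 3 (0.0731). LINC02693, classed as protein-coding by GENCODE, went from 2939, 2576 and 2995 to 2325, 1784 and 2574 (log2 fold change -0.36, SE 0.12, adjusted p = 0.0317) and was not past the threshold in a fit without the mean-variance trend (adjusted p = 0.131), without siCtrl replicate 1 (0.0922), without siCtrl replicate 3 (0.109) and without siRBFOX2 replicate 2 (0.143). LINC00623 went from 2555, 2794 and 2826 to 2278, 1954 and 2526 (log2 fold change -0.28, SE 0.09, adjusted p = 0.0344) and was not past the threshold in a fit of these groups alone (adjusted p = 0.0572), in a fit without the mean-variance trend (0.0944), after rescaling by the upper quartile (0.0556), without siCtrl replicate 2 (0.0989), without siCtrl replicate 3 (0.11), without siRBFOX2 replicate 1 (0.0651) and without siRBFOX2 replicate 2 (0.152). The seventh faller was the low locus LINC01135, named here after its values were seen, with 32.5, 52.0 and 38.2 in siCtrl, 7.98, 12.2 and 6.29 in siQKI and 9.46, 2.91 and 6.48 in siRBFOX2. It passed the filter through its siCtrl libraries, so no fold is given.

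**Figure D2:**
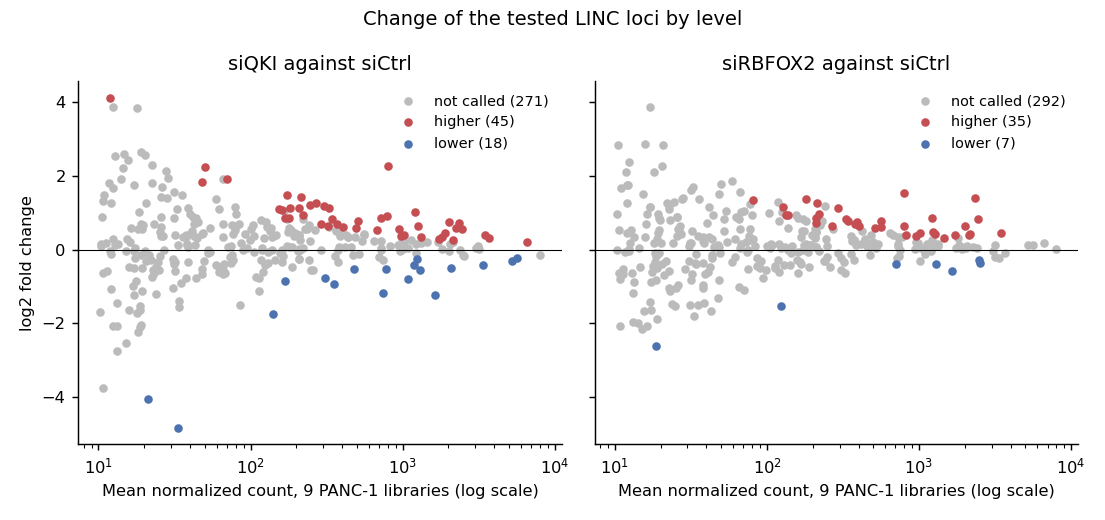
log2 fold change (y axis) against the mean normalized count over the 9 PANC-1 libraries (x axis, log scale) for the 334 tested LINC loci, with loci past the threshold coloured by direction. Calls sit mostly at means of 200 and over, and on siRBFOX2 7 of 42 calls lie below 0.

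The knockdowns were then compared with each other, a contrast that does not use siCtrl. Between siQKI and siRBFOX2, 11 LINC loci were higher in siQKI (3.29%) and 17 lower (5.09%), beside 9.93% and 11.6% of all genes tested. Both shares were below the background. LINC02520 (chr6:37507348-37541390) differed most, with 587, 499.7 and 586 in siQKI and 225, 174 and 112 in siRBFOX2 (log2 fold change 1.76, SE 0.25, adjusted p = 0.00011). Its siCtrl libraries, at 237, 293 and 237, lay between the knockdowns. LINC02870, at 224, 175 and 173 in siRBFOX2 (log2 fold change 1.40, SE 0.21, adjusted p = 0.00016), and LINC02298, at 224, 189 and 133 (log2 fold change 1.12, SE 0.27, adjusted p = 0.00632), were raised on siQKI without a like rise on siRBFOX2. LINC01521 (chr22:31346759-31351155) measured 469, 435 and 441 in siQKI and 243, 157 and 296 in siRBFOX2 (log2 fold change 0.99, SE 0.23, adjusted p = 0.00561).

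In the other direction, LINC02709 (chr11:9754770-9759533) was the firmest. It measured 619, 569 and 461 in siQKI, 758, 735 and 857 in siCtrl and 928, 1016 and 1009.6 in siRBFOX2, and siQKI against siRBFOX2 gave a log2 fold change of -0.85 (SE 0.14, adjusted p = 0.00038). The 3 groups were in separate ranges. LINC01588, at 658, 1091 and 811 in siRBFOX2, was lower in siQKI (log2 fold change -1.01, SE 0.19, adjusted p = 0.00126). LINC02085, at 164, 98.8 and 217 in siRBFOX2, was lower in siQKI as well (log2 fold change -1.35, SE 0.35, adjusted p = 0.0115), and was not past the threshold without siRBFOX2 replicate 3 (adjusted p = 0.0674). LINC00852, at 414, 355 and 429, also differed (log2 fold change -0.81, SE 0.22, adjusted p = 0.0142) and was not past the threshold without siQKI replicate 1 (adjusted p = 0.0609), without siQKI replicate 3 (0.0584) and without siRBFOX2 replicate 3 (0.0532). LINC02593 was higher in siQKI than in siRBFOX2 (log2 fold change 0.73, SE 0.16, adjusted p = 0.00387), whereas LINC00467 (log2 fold change -0.67, SE 0.13, adjusted p = 0.00139) and LINC00941 (log2 fold change -0.65, SE 0.09, adjusted p = 0.00015) were lower.

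Because most LINC loci are weak, their calls were set beside those of all genes in the same class of mean level. At means from 10 to below 50, 3 of 133 LINC loci rose on siQKI (2.26%, against 1.76% of all genes of that class), and at means from 50 to below 200 7 of 84 did (8.33% against 6.86%). From 200 to below 1000 the share was 27.4% of 73 loci against 22.4%. At 1000 and over, 15 of 44 rose (34.1% against 20.6%) and 9 fell (20.5% against 33.4%). On siRBFOX2, the class from 200 to below 1000 had 24.7% risers against 16.8% and 1.37% fallers against 3.95%. The most abundant class there had 27.3% risers against 17.3% and 9.09% fallers against 27.7%. In the 2 lowest classes the LINC shares were thus near those of all genes. From 200 to below 1000 the share of risers was above that of all genes on both knockdowns. In the most abundant class more LINC loci rose and fewer fell, in a class of 44 loci. That class has no upper bound, so levels within it were not matched. The highest LINC mean in siCtrl was 8231, against 427827 for KRT8. The median SE in the class was 0.098 for LINC loci and 0.060 for all genes. From the lowest class to the highest, the median log2 fold change on siQKI was 0.13, 0.15, 0.34 and 0.15 over LINC loci. Over all genes it was 0.24, 0.21, 0.18 and -0.05. On siRBFOX2 the medians were 0.06, 0.13, 0.26 and 0.09 over LINC loci, and 0.11, 0.17, 0.16 and -0.04 over all genes. In the 2 lowest classes the LINC medians were thus below those of all genes. These shares and medians are descriptions and were not tested.

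**Figure D3:**
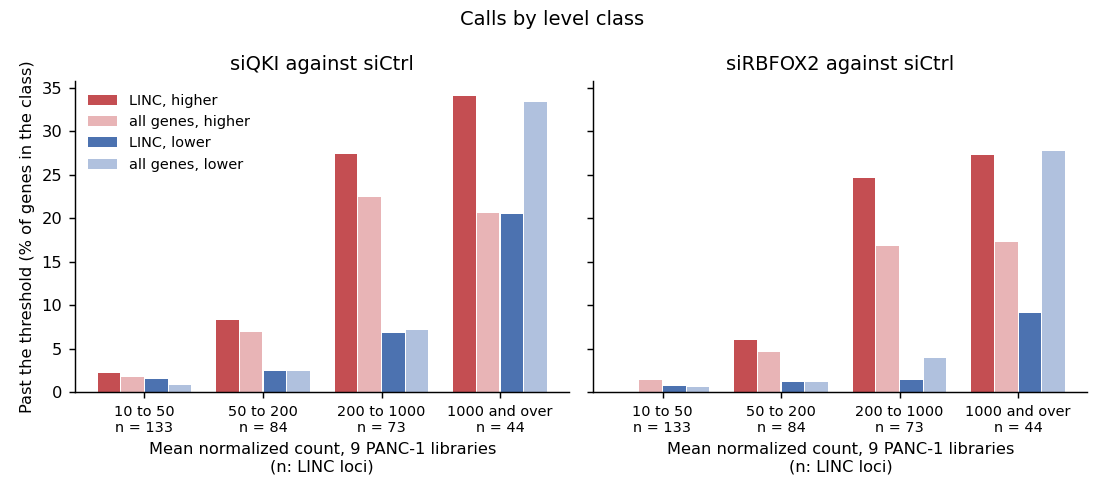
Share of genes past the threshold (y axis, %, from 0) in 4 classes of mean normalized count over the 9 PANC-1 libraries (x axis), for LINC loci (dark bars) and all tested genes (pale bars), higher in red and lower in blue. In the class of 1000 and over, which has no upper bound, 34.1% of LINC loci and 20.6% of all genes were higher on siQKI.

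Other noncoding classes also had more risers than fallers. On siQKI, 95 of 683 tested antisense loci (symbols ending in -AS, with or without digits) were higher (13.9%) and 21 lower (3.07%), with a median log2 fold change of 0.22. Of 208 divergent transcripts (symbols ending in -DT), 35 were higher (16.8%) and 7 lower (3.37%), with a median of 0.26. The 46 host genes of small RNAs did not lean this way, with 5 higher (10.9%) and 8 lower (17.4%) and a median of 0.06. Over all genes tested the shares were 14.9% and 18.1%. Protein-coding genes had a median of -0.02. On siRBFOX2 the medians were 0.20 for antisense loci, 0.24 for divergent transcripts, 0.11 for host genes (8 higher and 4 lower) and -0.02 for protein-coding genes. The host gene shares there were 17.4% and 8.70%, beside 12% and 14.5% over all genes. The LINC medians, 0.18 and 0.14, were therefore not particular to LINC loci. Tested antisense loci and divergent transcripts had median levels of 139 and 135 normalized counts, against 4760 for protein-coding genes. Of all genes with means from 50 to below 200, 6.86% were higher and 2.42% lower on siQKI, with a median of 0.21. The classes were not compared at equal level, so a lean particular to noncoding loci is not shown.

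As nuclear decay clears many noncoding transcripts, a list of 25 genes of the RNA exosome, its adaptors and the cap-binding complex was examined. On siQKI, 2 of 25 were higher and 13 lower, with a median log2 fold change of -0.14 and a range from -0.47 to 0.23. On siRBFOX2, 2 were higher and 13 lower, with a median of -0.14. Of all genes tested, 14.9% were higher and 18.1% lower on siQKI, and 12% higher and 14.5% lower on siRBFOX2. Among all genes with a mean of 1000 and over, 33.4% and 27.7% were lower. The exosome nuclease gene DIS3 had a log2 fold change of -0.32 (adjusted p = 0.00022) on siQKI and -0.17 (0.0232) on siRBFOX2, the helicase gene MTREX -0.17 (0.0095) and -0.25 (0.00075), and the exosome subunit gene EXOSC5 -0.19 (0.00739) and -0.51 (2.9e-06). Their part in the LINC values was not tested.

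Loci described in tumour cell studies formed a list of 25 symbols, of which 22 were in the tables and 17 were tested. On siQKI, 3 were higher and 4 lower (median log2 fold change 0.01), and on siRBFOX2 2 were higher and 1 lower (median -0.01). Over all tested LINC loci the shares were 13.5% higher and 5.39% lower on siQKI and 10.5% and 2.10% on siRBFOX2, and over all genes 14.9% and 18.1% on siQKI and 12% and 14.5% on siRBFOX2. Besides LINC00941 and LINC00511, the fallers on siQKI were LINC00662, from 1322 ± 132 to 985 ± 14.1 (log2 fold change -0.42, SE 0.10, adjusted p = 0.00504), and LINC00673, an RNA reported to restrain the phosphatase PTPN11, from 5734 ± 137 to 4932 ± 288 (log2 fold change -0.22, SE 0.06, adjusted p = 0.00985). LINC00673 was not past the threshold after rescaling by the upper quartile (adjusted p = 0.0561) and without siQKI replicate 3 (0.0533). LINC00342 rose on both, to 2536 ± 366 on siQKI and 3124 ± 793 on siRBFOX2 from 1711 ± 187 (log2 fold changes 0.56 and 0.84, adjusted p = 0.00906 and 0.00069), and on siQKI it was not past the threshold in a fit without the mean-variance trend (adjusted p = 0.0803) and without siQKI replicate 3 (0.0511).

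LINC00839 rose from 1825 ± 177 to 2202 ± 122 on siQKI and to 2449 ± 141 on siRBFOX2 (log2 fold changes 0.27 and 0.43, adjusted p = 0.028 and 0.00228). On siQKI it was not past the threshold in a fit without the mean-variance trend (adjusted p = 0.0577), without siCtrl replicate 1 (0.0522), without siCtrl replicate 2 (0.131), without siQKI replicate 2 (0.111) and without siQKI replicate 3 (0.0627). LINC00963 rose on siQKI from 1603 ± 75 to 1975 ± 68.1 (log2 fold change 0.30, SE 0.09, adjusted p = 0.0215), and was not past the threshold without siCtrl replicate 1 (adjusted p = 0.0562), without siCtrl replicate 3 (0.0728), without siQKI replicate 2 (0.0783) and without siQKI replicate 3 (0.0548). The log2 fold changes of the other listed loci with a mean of at least 50 in a group of either line were small or wide. LINC00261, which lies beside FOXA2, a regulator of endoderm, had 0.01 on siQKI (95% interval -0.19 to 0.20) and -0.20 on siRBFOX2 (-0.39 to -0.01). LINC00460 had -1.12 on siQKI (-2.06 to -0.18), and LINC01503 0.10 (-0.52 to 0.73). LINC00857, LINC00472, LINC00665, LINC00667, LINC01116 and LINC00707 were not past the threshold either, on siQKI or on siRBFOX2. Their siQKI values ran from -0.27 (LINC01116) to 1.27 (LINC00707), the last at 5.84 ± 5.75 counts in siCtrl, 10.1 ± 3.71 in siQKI and 20.5 ± 17.4 in siRBFOX2. LINC00707 reached a mean of 50 in HPAF-II alone and passed the filter of 10 through its siRBFOX2 libraries, so its fold carries little weight.

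Of 7 loci known to code for a small protein, only LINC00467 was found under its LINC symbol. The study's splicing tables list LINC00680, LINC00339 and LINC01278, so their gene levels were read too. LINC00339 rose on siQKI, from 1256, 1068 and 1208 to 1683, 1490.4 and 1358 (log2 fold change 0.36, SE 0.11, adjusted p = 0.020), and was not past the threshold without siCtrl replicate 2 (adjusted p = 0.0886) and without siQKI replicate 1 (0.0982); it overlaps AL031281.2, and 68.4% of its 31-base words occur in other genes. LINC00680 had log2 fold changes of 0.09 on siQKI (95% interval -0.07 to 0.26) and 0.14 on siRBFOX2 (-0.03 to 0.30). LINC01278 had -0.01 (-0.21 to 0.20) and 0.04 (-0.16 to 0.25). Neither was past the threshold.

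LINC loci were then compared between the cell lines. Their tables were normalized separately, so every library was rescaled to a total of 1000000, values are given per 1000000, and no test was made between lines. Over 408 LINC loci, a PANC-1 and an HPAF-II siCtrl library correlated at r = 0.213 to 0.273 on the log2 scale, against 0.736 to 0.749 over 23371 genes of any kind, a description across genes that includes many low values. Of the loci at or above 10 in PANC-1 siCtrl, 69.6% also reached it in HPAF-II (229 loci, which were 61.9% of the HPAF-II set). 100 reached it in PANC-1 alone, 45 of them listed at 0 in HPAF-II, and 141 in HPAF-II alone, 72 of them listed at 0 in PANC-1 siCtrl. The LINC loci numbered 329 in PANC-1 siCtrl, 370 in HPAF-II and 470 in either line. Over all rows the numbers were 22168, 21399 and 24673, so all rows overlapped more. LINC loci lay nearer the minimum of 10 (medians of 90.8 and 77.3, against 935 and 998), so these overlaps are not at equal level.

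Among the 470 loci at or above 10 in either line, 210 (44.7%) were at least 2-fold higher in HPAF-II and 135 (28.7%) at least 2-fold lower, with 0.01 added to each mean. For all 24673 genes at that level the shares were 27.2% and 25.2%. The size of these shares depended on the added value. With 0.1 added, 210 loci differed at least 2-fold in place of 345, 27.7% higher and 17.0% lower in HPAF-II, beside 19.8% and 18.0% of all genes. The libraries of the lines did not overlap for 166 loci higher in HPAF-II (35.3%) and 128 lower (27.2%), beside 32.0% and 31.7% of all genes. The median absolute log2 ratio was 2.12 for LINC loci and 1.07 for all genes with 0.01 added, and 0.90 and 0.73 with 0.1 added. The median log2 ratio of all genes was 0.08 after rescaling and -0.19 on the deposited values, and that of the LINC loci was 0.67 and 0.43. Of loci above 0 in both lines, 138 were at least 2-fold higher and 90 at least 2-fold lower in HPAF-II, of 353. The same count was not made over all genes, so it cannot be set beside a background.

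LINC01559, described in pancreatic and gastric cancer, headed the loci that were high in HPAF-II. It was listed at 0 in all 9 PANC-1 libraries and measured 6.26, 4.25 and 5.04 per 1000000 in the HPAF-II libraries. LINC01133, reported to bind the splicing factor SRSF6, was likewise listed at 0 in every PANC-1 library, with 1.96, 1.85 and 2.02 per 1000000 in HPAF-II, and so was LINC00648, with 2.51, 2.08 and 2.01. LINC00707, reported to bind the RNA-binding protein HuR, measured 6.10 ± 2.36 per 1000000 in HPAF-II and 0.0171 ± 0.0170 in PANC-1 siCtrl (mean ± SD, n = 3), and LINC02889 3.40 ± 1.17 and 0.00874 ± 0.0151. LINC00865 (2.17 ± 0.517), LINC01748 (1.92 ± 0.478) and LINC01978 (1.68 ± 0.618) were listed at 0 in PANC-1 siCtrl. These loci were close to an on and off pattern between the lines.

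Loci with the opposite pattern were at least as marked. LINC00839 measured 5.44, 4.71 and 5.77 per 1000000 in the PANC-1 siCtrl libraries and was listed at 0 in all HPAF-II libraries. LINC00662 (3.84 ± 0.421), LINC00461 (2.54 ± 0.268), LINC02610 (2.40 ± 0.193), LINC01116 (2.30 ± 0.172) and LINC00664 (1.54 ± 0.114) were also listed at 0 in HPAF-II. LINC00461 is a brain-rich RNA near MEF2C whose locus hosts a copy of the microRNA miR-9. LINC02987 and LINC00665 measured 6.49 ± 0.327 and 5.83 ± 0.429 in PANC-1 and 0.00133 and 0.00430 in HPAF-II, where each was above 0 in 1 library only. LINC02987 (chr19:27793431-28024969, plus strand) and LINC00662 (chr19:27790494-27794254, minus strand) overlap on opposite strands on chromosome 19, so reads in their shared stretch cannot be told apart.

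Several loci that were abundant or moved on knockdown also differed between the lines while present in both. LINC00467 was 12.05-fold higher in HPAF-II (47.1 ± 11.1 against 3.91 ± 0.804 per 1000000), LINC01002 6.42-fold, LINC00342 5.21-fold, LINC00963 3.10-fold and LINC00941 3.06-fold (20.9 ± 1.86 against 6.84 ± 0.179). LINC00674 was 2.33-fold higher. In the other direction, LINC00261 was 25.2-fold higher in PANC-1 (9.64 ± 0.565 against 0.382 ± 0.0273), LINC02709 6.16-fold, LINC00888 5.86-fold and LINC00673 2.30-fold. LINC02593 was 2.59-fold higher in PANC-1, with 0.0706, 0.267 and 0.591 per 1000000 in the HPAF-II libraries, and 4.74-fold without HPAF-II replicate 3. The libraries of the lines did not overlap for any of these 11 loci. 97.3% of the 31-base words of LINC00261 also occur in AL121722.1, which overlaps it on the same strand. LINC01770, LINC02085 and LINC02280, which moved on siQKI, had linear ratios of HPAF-II to PANC-1 of 0.969, 0.925 and 1.05, with overlapping libraries, and that of LINC02085 was 0.590 without HPAF-II replicate 1.

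**Figure D4:**
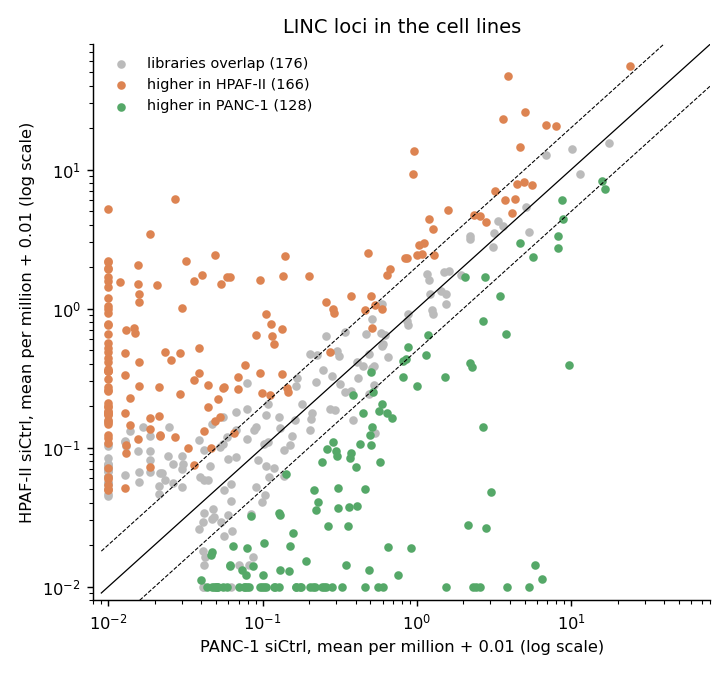
Mean per 1000000 plus 0.01 in PANC-1 siCtrl (x axis) and HPAF-II siCtrl (y axis), both on log scales, for the 470 LINC loci at or above 10 normalized counts in either line; each point is a locus, orange or green where the libraries of the lines did not overlap, the solid line marks equal levels and the dashed lines a 2-fold difference. The columns of points at the left and bottom edges are loci listed at 0 in one line, 72 in PANC-1 and 45 in HPAF-II.

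Each tested LINC locus was also set beside its nearest protein-coding gene, where that gene was tested. There were 272 such pairs with 250 distinct neighbours, and the LINC locus was past the threshold in 49 of them on siQKI and in 34 on siRBFOX2. On siQKI, both members of 33 pairs were past the threshold, 23 in the same direction and 10 in opposite directions, and 52.6% of the neighbours were called, beside 45.2% of all tested protein-coding genes. On siRBFOX2 there were 14 such pairs, 7 in the same direction and 7 in opposite directions, and 47.1% of the neighbours were called, beside 37.1% of protein-coding genes. Across pairs, the log2 fold changes of locus and neighbour correlated at Pearson's r = 0.158 and Spearman's rho = 0.237 on siQKI, and at 0.0588 and 0.0970 on siRBFOX2, a weak relation given as a description, since all pairs share the same libraries.

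Single pairs were clearer. SAMD11, which lies 4.24 kb from LINC02593, rose with it on siQKI (log2 fold change 1.83, SE 0.12, adjusted p = 2.5e-08) and on siRBFOX2 (log2 fold change 1.03, SE 0.12, adjusted p = 1.5e-05). VWA1, a gene for an extracellular matrix protein that starts beside LINC01770, rose with it on siQKI (log2 fold change 0.70, SE 0.08, adjusted p = 5.5e-06). NT5E, the gene for the surface nucleotidase CD73, lies 44.8 kb from LINC02535 and fell with it on siQKI (log2 fold change -0.79, SE 0.06, adjusted p = 9.8e-08). NFKBIZ, a regulator of NF-kappaB target genes that lies 79.8 kb from LINC02085, fell as well (log2 fold change -0.81, SE 0.09, adjusted p = 8.2e-06). ADA, the gene for adenosine deaminase, rose with LINC01260 on siRBFOX2 (log2 fold change 0.74, SE 0.06, adjusted p = 5.0e-07).

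Other neighbours did not follow their locus, or followed it on siQKI alone. TRAF5, beside LINC00467, was not past the threshold on siRBFOX2 (log2 fold change 0.05, SE 0.10, adjusted p = 0.805), nor was MCF2L2, beside LINC00888, on siQKI (log2 fold change 0.01, SE 0.12, adjusted p = 0.955). PATZ1, which starts 545 bases from LINC01521 on the other strand, rose on siQKI (log2 fold change 0.46, SE 0.07, adjusted p = 6.5e-05). LINC01521 rose with it there, from 285 ± 19.4 to 448 ± 17.8 (log2 fold change 0.65), a call lost in 8 of 17 alternatives. On siRBFOX2, PATZ1 rose (log2 fold change 0.41, SE 0.07, adjusted p = 0.00027), where LINC01521 had a log2 fold change of -0.34 (adjusted p = 0.324). INF2, 24.0 kb from LINC02280, fell on siQKI (log2 fold change -0.31, SE 0.04, adjusted p = 4.7e-05) while LINC02280 rose. SWAP70, 1.78 kb from LINC02709, rose on siQKI (log2 fold change 0.20, SE 0.04, adjusted p = 0.00085) while LINC02709 fell (log2 fold change -0.52, adjusted p = 0.00907).

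**Figure D5:**
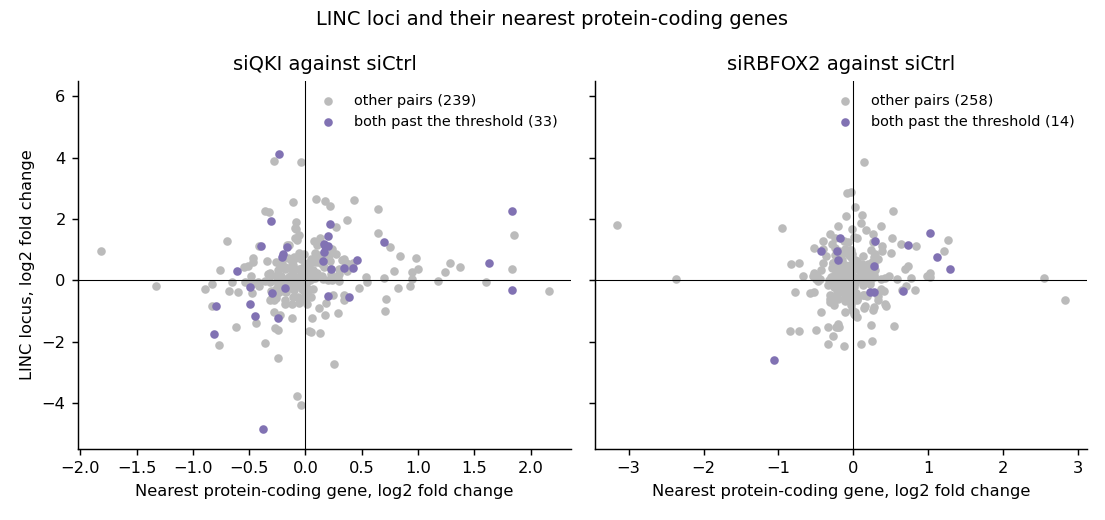
log2 fold change of each tested LINC locus (y axis) against that of its nearest tested protein-coding gene (x axis) for siQKI and siRBFOX2 against siCtrl; each point is one of 272 pairs, and pairs with both members past the threshold are coloured. Coloured points lie in all 4 quadrants, with 23 of 33 on siQKI in the same-direction ones.

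The motif letters shown above were counted among the loci that moved. ACTAAC was in the longest transcript of 9 of 43 loci that rose on siQKI (20.9%), 3 of 16 that fell (18.8%) and 42 of 256 not called (16.4%). TGCATG was in 13 of 34 loci that rose on siRBFOX2 (38.2%), 3 of 6 that fell and 104 of 275 not called (37.8%). The median transcript length was 2351 bases for loci that rose on siQKI and 1789 for those not called, so the shares per transcript are not at equal length. Per kilobase, ACTAAC occurred 0.0879 times in risers, 0.0892 in fallers and 0.102 in the rest. TGCATG occurred 0.229 times per kilobase in risers on siRBFOX2, 0.507 in the 6 fallers and 0.326 in the rest, which was not tested. LINC00941, LINC00888, LINC01588 and LINC00467, among the firmest changes, held neither motif in their longest transcript. LINC02593 and LINC02709, also among the firmest, held 2 and 1 TGCATG there and no ACTAAC.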

How the data were processed

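RNA was poly(A)-selected per the labels and sequenced from 9 PANC-1 and 3 HPAF-II libraries. The authors aligned reads to hg38 (the submitters' processing notes name STAR 2.7.5a, SAMtools, Picard, FastQC and DESeq2), counted them on FAST DB genes and deposited a signal value per gene (the gene count over the size factor that DESeq2 gave the library), in a separate table per cell line. The study's list of software names featureCounts and a later STAR release. The strand setting of the counting is not given in the sources used here. All values of a library were whole multiples of 1 step within 0.01, but because most low values were multiples of 3 steps a step was not taken for a read, so no count model was used and no counting interval is given.

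From the deposited values, limma 3.58.1 in R 4.3.3 (moderated test with a mean-variance trend, all 9 PANC-1 libraries in 1 fit, no covariate) was run on log2(value + 1) for genes with a mean of at least 10, with Benjamini-Hochberg adjustment over all genes and a threshold of 0.05. It was tested on simulated data first. The fit covered siCtrl, siQKI and siRBFOX2. HPAF-II was compared with PANC-1 siCtrl after rescaling to a total of 1000000, with 0.01 added, without a test. Positions, transcripts and neighbours came from GENCODE 29 (GRCh38) and promoters from RefSeq (GRCh38.p14). Words of 31 bases were compared between transcripts. Named loci were, for each knockdown, up to 8 with the largest rise and 8 with the largest fall among calls with a mean of 50 or more and libraries apart, up to 4 each way between knockdowns and 8 each way between lines by like conditions, the 8 most abundant in each line, the loci of the splicing tables, and listed loci with a mean of at least 50 in a group. Members and lists were chosen with earlier results of these data known. Alternatives covered the pseudocount, filter, scaling, replicate block and each library left out.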

Additional observations from a re-analysis of the deposited data

How the results depend on the processing

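In the 3 knockdown contrasts, no alternative turned the direction of a named call. Of 1679 fold changes of named loci recomputed under the alternatives, 1580 stayed on their side of the threshold, 96 calls were lost and 3 were gained (LINC00460 on siQKI without siQKI replicate 2, and LINC00857 on siRBFOX2 after rescaling by the upper quartile and without siRBFOX2 replicate 2). All 17 alternatives kept 13 of 16 leading calls on siQKI, 5 of 14 on siRBFOX2 and 6 of 8 between the knockdowns. Leaving out 1 library in turn gave 45 to 65 LINC loci called on siQKI, 28 to 42 on siRBFOX2 and 19 to 30 between the knockdowns. Asking for a fold change of at least 1.5 as well left 40 and 27 loci on siQKI and siRBFOX2, and loci that overlap no other gene numbered 35, 20 and 14 of the calls in the 3 contrasts, both by construction fewer.

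A minimum mean of 1 gave 554, 569 and 548 active loci in siCtrl, siQKI and siRBFOX2, and a minimum of 50 gave 197, 207 and 207, with 219 in HPAF-II. Leaving out 1 library gave 332 to 334, 332 to 349, 340 to 346 and 363 to 376 in the same order at the minimum of 10. Between the lines, 210 loci differed at least 2-fold with 0.1 added, 199 with a mean of at least 50 in either line, and 339 to 364 with 1 library left out. Of 176 line ratios of named loci, 156 moved by less than the replicate spread and 20 by more, none in sign.

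The replicate numbers of the labels did not pair the libraries: deviations of same-numbered libraries correlated at -0.0325 to 0.0235, those of other numbers at -0.0333 to 0.0384, and 3 of 9 libraries correlated best with their own number. With the replicate number as a block, 60, 40 and 25 loci were called in the 3 contrasts, and 59 of 63, 38 of 42 and 25 of 28 reported calls were shared with that fit. Depth in reads is unknown, which limits what can be said of the 133 tested loci with a mean under 50, where few calls were made.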
